A study of Mus musculus with 4 samples.

Results

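Gnrh1 (ENSMUSG00000015812) encodes the precursor of gonadotropin-releasing hormone, and it was 1 of 32285 genes counted in spatial transcriptomes of mouse olfactory bulb. It was chosen from results of the same data, because its level differed widely between libraries. Its levels and the make-up of the spots that hold it are therefore given as descriptions, with no test. Over the 4616 spots with at least 500 unique molecular identifiers (UMIs, each standing for 1 captured RNA molecule), 606 Gnrh1 UMIs were counted in 222 spots. The 97 shallower spots that were set aside held 0 Gnrh1 UMIs.

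The tissue came from 1 control mouse and 1 mutant mouse, both labelled olfactory bulb and described as sacrificed at 5 months. The mutant carried a transgenic soluble form of VEGFR1, a decoy receptor that binds VEGF, under tetracycline-regulated control by camk2a-tTA, and its VEGF blockade is labelled e13.5. The control is labelled only as control, and the labels do not say which of these alleles it carried. Fresh-frozen coronal sections were placed on 2 capture areas per mouse, with 1 or 2 sections each, and read with Visium, in which barcoded spots capture polyadenylated RNA from the tissue above them. A spot can hold several cells or parts of cells, so fewer cells of a type and less RNA per cell cannot be told apart.

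Neurons that make this hormone are few. During development they arise in the nose and migrate along olfactory, vomeronasal and terminal nerve axons, past the olfactory bulb and into the basal forebrain, where they come to drive the release of gonadotropins from the pituitary. Cells that express the hormone are also known along the terminal nerve and in the olfactory bulb of adult rodents. Their route runs through the nerve layer and the meninges at the ventral and medial faces of the bulb, beside ensheathing glia and blood vessels.

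The 4 libraries could not be tied to the labelled samples, since the barcode suffix that separates them matches no label, and they are called libraries 1 to 4. No value here is a comparison of the mutant with the control. The libraries held 715 to 1662 spots, with a median of 7186 to 9829 UMIs per spot. Libraries 1 and 2 were alike over all genes (chi-square per degree of freedom 2.89), as were libraries 3 and 4 (3.23), while the other pairs lay between 24.8 and 48.1. Libraries 3 and 4 also held far more of the reactive glia gene Serpina3n (564 and 449 counts per 1000000 UMIs, CPM, against 29.2 and 31.2) and of the cortical neuron gene Nrgn (1182 and 1239 CPM against 112 and 151). Genes of the bulb itself were present in all 4 libraries: Th, the dopamine-synthesis enzyme of periglomerular neurons, lay at 584, 531, 123 and 116 CPM in libraries 1 to 4, and Pcp4, a granule cell gene, at 822, 892, 829 and 877 CPM. The libraries shared 1408 spot barcodes.

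Gnrh1 was lowest in library 2 and highest in library 3. The counts were 146, 6, 289 and 165 UMIs in libraries 1 to 4. Library 1 lay at 11.0 CPM (95% exact Poisson interval 9.27 to 12.9) and library 2 at 1.15 CPM (0.422 to 2.5). Library 3 lay at 23.1 CPM (20.5 to 25.9) and library 4 at 17.3 CPM (14.8 to 20.2). The 4 intervals did not overlap. They cover counting error only, and each library is taken to be 1 capture area. The ratio of library 3 to library 2 was 20.1 (exact interval 9.11 to 55.2). Among 9852 genes with at least 500 UMIs, 7.85% differed over 2-fold between their highest and lowest library, and 18 genes had a wider ratio than Gnrh1. Library 2 set this ratio: without it, the highest and lowest libraries differed by 2.10-fold (1.72 to 2.58).

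Neighbours in the order were closer. Library 3 exceeded library 4 by 1.33-fold (1.10 to 1.62), and library 4 exceeded library 1 by 1.58-fold (1.25 to 1.98). Libraries 1 and 2, alike over all genes, differed in Gnrh1 by 9.55-fold (4.29 to 26.5). They were not alike in every gene of the nasal mucosa. Obp1a lay at 366 and 4.59 CPM in libraries 1 and 2, while Cyp2a5 differed less, at 129 and 74.7 CPM.

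Few spots held a Gnrh1 UMI. In library 1 it was 53 of 1662 spots, 3.19% (exact Clopper-Pearson interval 2.40 to 4.15), and in library 2 it was 6 of 715 spots, 0.839% (0.309 to 1.82). In library 3 it was 92 of 1296 spots, 7.10% (5.76 to 8.64), and in library 4 it was 71 of 943 spots, 7.53% (5.93 to 9.40). To set depth equal, 2000 UMIs were drawn from every spot, and the 233, 89, 42 and 20 spots with fewer were dropped. The shares were then 1.33%, 0.319%, 2.39% and 2.49%. The shares of libraries 3 and 4 lay within each other's intervals, in the opposite order to their CPM, and no order is read from them. Spots with Gnrh1 were not deeper than the rest in every library: their median depths were 6595, 7244, 10179.5 and 9818 UMIs, against 7939, 7186, 8937.5 and 9862 UMIs in the other spots.

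Most of these spots held a single Gnrh1 UMI, and a handful held many. Exactly 1 UMI was counted in 39, 6, 66 and 55 spots of libraries 1 to 4, and 2 to 9 UMIs in 12, 0, 22 and 13 spots. The remaining 9 spots held at least 10 UMIs, a threshold set after the counts were seen. They held 47 and 19 UMIs in library 1, 81, 39, 23 and 13 UMIs in library 3, and 26, 25 and 20 UMIs in library 4. Just below the threshold, the highest spots held 8 UMIs in library 3, 7 UMIs in library 1 and 5 UMIs in library 4. In library 2 no spot held more than 1.

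**Figure D1:**
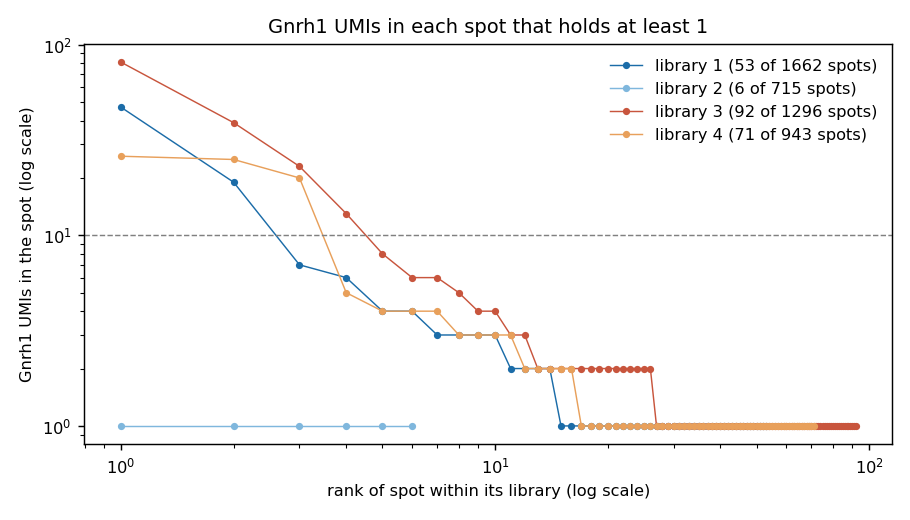
Gnrh1 UMIs (vertical axis, log scale) in every spot that holds at least 1, ranked within its library (horizontal axis, log scale), with 1 line per library and a dashed line at 10 UMIs. Libraries 1, 3 and 4 each have a few spots above the dashed line, 9 in all, while the 6 spots of library 2 hold 1 UMI each.

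The 9 high spots were 0.195% of all spots and held 293 of the 606 Gnrh1 UMIs, or 48.3%. They held 45.2% of the Gnrh1 UMIs of library 1, 54.0% of those of library 3 and 43.0% of those of library 4. Without them Gnrh1 lay at 6.02, 1.15, 10.6 and 9.89 CPM in libraries 1 to 4, and library 3 no longer exceeded library 4 beyond counting error (ratio 1.08, interval 0.820 to 1.42). Library 3 still exceeded library 2 by 9.26-fold (4.15 to 25.7). Of the remaining spots, 3.07%, 0.839%, 6.79% and 7.21% of all spots of libraries 1 to 4 held 1 to 9 UMIs.

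Within a high spot the transcript was abundant. The highest, in library 3, held 81 Gnrh1 UMIs among 10183 UMIs, or 7954 CPM (6317 to 9887), and the lowest share was 1863 CPM (1206 to 2751) in a spot of library 4. These spots were of ordinary depth, between the 17.0 and 74.8 percentile of their library. In other libraries, 13 spots carried the barcode of a high spot, and those 13 spots held 0 Gnrh1 UMIs. Of the 216 barcodes with a Gnrh1 UMI in any library, 6 had one in 2 libraries.

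This concentration was rare among genes of similar abundance. Among 4652 genes with 300 to 1200 UMIs, the 10 highest spots held a median of 4.29% of a gene's UMIs, and for Gnrh1 they held 49.7%, the rank of 5. The named genes with larger shares were Ces1a, a carboxylesterase, at 56.4%, and Lcn11, a lipocalin, at 54.3%. Next below Gnrh1 came Ces1d, another carboxylesterase and a mucosal gene in the lists used here, at 43.1%, and Igkc, the antibody kappa constant chain, at 31.8%. Gnrh1 UMIs were seen in 222 spots, where the median gene of this abundance was seen in 585.

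**Figure D2:**
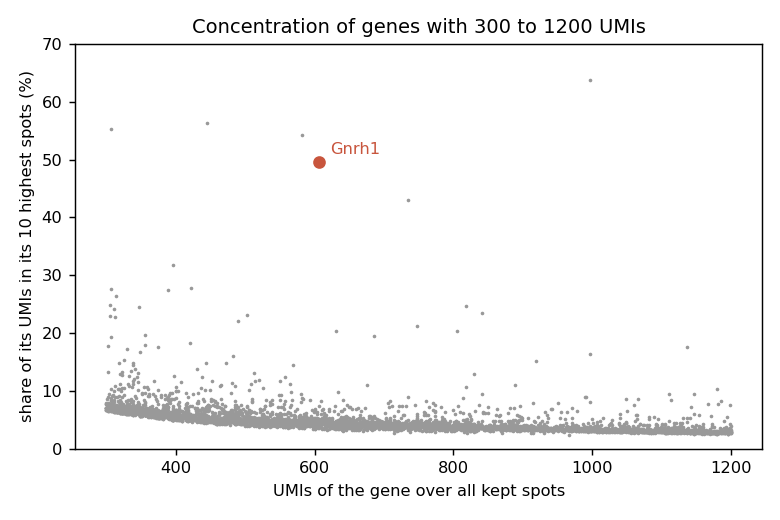
Share of a gene's UMIs that lies in its 10 highest spots (vertical axis, percent) against the gene's UMIs over all kept spots (horizontal axis), 1 point per gene for 4652 genes. Gnrh1, at 606 UMIs and 49.7%, stands far above the median of 4.29%.

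Spots were grouped into regions by their other genes, with Gnrh1 and all list genes left out, and each region is called by its leading gene. The Bpifb9b region of libraries 1 and 2 was led by mucosal and sensory neuron genes (Bpifb9b, Umodl1, Stoml3, Gfy and Omp). The Osr1 region of libraries 3 and 4 was led by meningeal genes (Osr1, Foxc2, Fmod, Slc22a6 and Ptgds). The Mmp12 region of the same libraries was led by genes of macrophages and inflammation (Mmp12, Cxcl10, C3 and Lcn2) and by the carboxylesterase gene Ces1a. It also held more of the ensheathing glia list (0.481% and 0.529% of UMIs in libraries 3 and 4, against 0.273% and 0.269% in the whole library) and of the mucosa list (0.151% and 0.273%, against 0.0555% and 0.103%).

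Among regions of at least 30 spots in a library, Gnrh1 was highest in the mucosal and sensory region of library 1 and in the meningeal and inflammatory regions of library 3. In library 1 the Bpifb9b region held 111 of the 146 UMIs, 76.0% of them in 25.1% of the spots, at 36.5 CPM (30.1 to 44.0). The Gal region lay at 3.30 CPM (1.76 to 5.64) and the Klhl30 region at 1.70 CPM (0.682 to 3.49). The meningeal Osr1 region had only 21 spots in library 1, of which 2 held 7 and 4 UMIs, and so lay at 71.1 CPM (35.5 to 127), with an interval that overlapped that of the Bpifb9b region. In library 2 the Osr1 region held 0 Gnrh1 UMIs in 20 spots, and the Bpifb9b region held 1 UMI, or 0.909 CPM (0.0230 to 5.07), in 155 spots.

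In library 3 the Osr1 region lay at 74.2 CPM (62.9 to 87.0) and the Mmp12 region at 31.4 CPM (25.9 to 37.6). The Trbc2 region, led by Trbc2 and Tnnc1, lay at 2.57 CPM (1.11 to 5.07), and the Tbx21 region, led by the mitral cell factor Tbx21, at 1.69 CPM (0.204 to 6.09). In the Necab2 region, 0 Gnrh1 UMIs were counted in 50 spots, where 3 UMIs would be 6.63 CPM. The intervals of the Osr1 and Mmp12 regions did not overlap each other or those of the remaining regions of at least 30 spots.

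In library 4 the order was different at the top. The Tbx21 region lay at 43.6 CPM (29.6 to 61.9), of which a single spot gave 26 of 31 UMIs, and without that spot it lay at 7.13 CPM (2.32 to 16.6). The Osr1 region lay at 32.8 CPM (23.8 to 44.0), the Mmp12 region at 22.7 CPM (17.4 to 29.2) and the Trbc2 region at 4.39 CPM (2.19 to 7.85). The Cacna1h region, a shallow region with a median of 4837 UMIs per spot, lay at 17.4 CPM (7.52 to 34.3) on 8 UMIs.

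Without the 9 high spots, and among regions of at least 30 spots, the Bpifb9b region was still highest in library 1 and the Osr1 region in library 3. The small Osr1 region of library 1, which holds no high spot, stayed at 71.1 CPM. The Bpifb9b region of library 1 lay at 14.9 CPM (10.9 to 19.9). The Osr1 regions of libraries 3 and 4 lay at 24.0 and 18.0 CPM, and the Mmp12 regions at 17.4 and 13.5 CPM. The Cacna1h region of library 4, which holds no high spot, stayed at 17.4 CPM (7.52 to 34.3). Its interval covered the Osr1 and Mmp12 values of that library, so library 4 showed no clear order among them. The granule cell list made up 0.485% of UMIs in that Cacna1h region, against 0.184% in the whole library. In library 3 the share of spots with a UMI went from 0 of 50 in the Necab2 region to 32 of 241 (13.3%) in the Osr1 region. The median depths there were 7901.5 and 8247 UMIs.

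**Figure D3:**
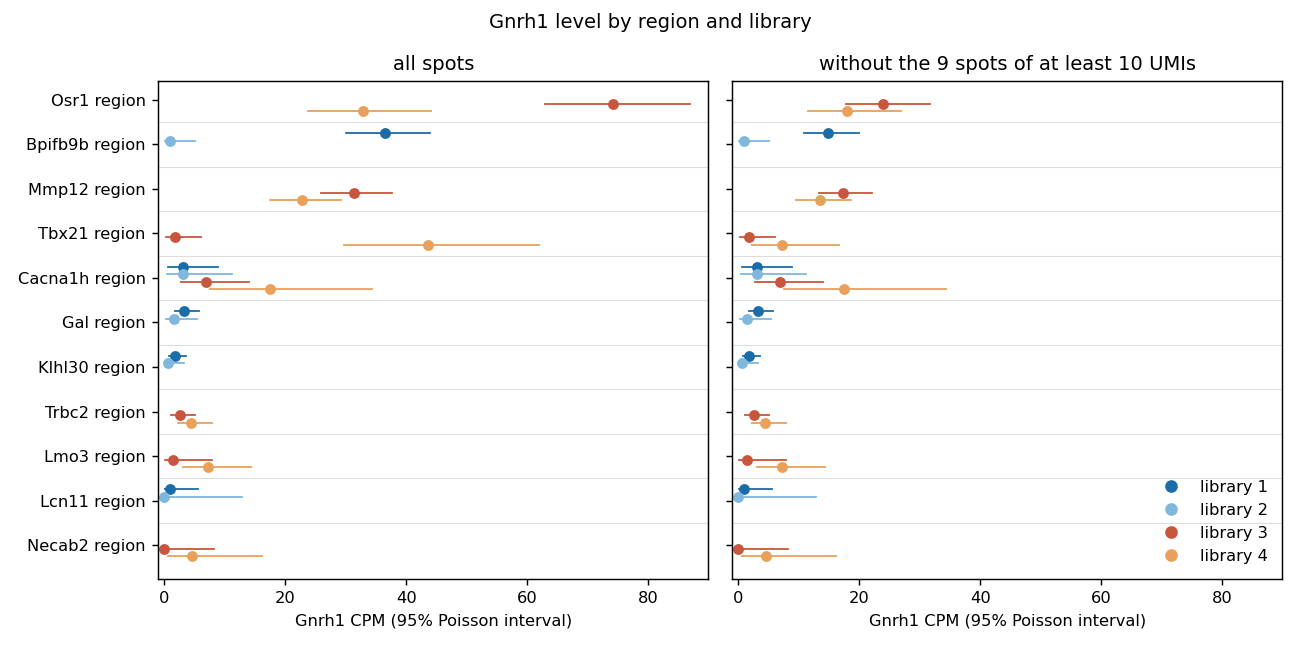
Gnrh1 CPM (horizontal axis) by region (vertical axis) and library (colour) with 95% Poisson intervals, over all spots on the left and without the 9 high spots on the right. Of the regions of at least 30 spots in a library that are shown, the Osr1, Bpifb9b and Mmp12 regions are highest in libraries 1 and 3 in both panels, the Bpifb9b region of library 2 is near 0, and the Tbx21 region of library 4 drops from 43.6 to 7.13 CPM.

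Finer regions gave higher values, carried largely by the high spots. At a resolution of 1.2, 85 of the 146 UMIs of library 1, and both of its high spots, lay in a region of 46 spots led by Umodl1, a gene of olfactory sensory neurons, at 351 CPM, or 82.9 CPM without the high spots. In library 3, 143 UMIs lay in a region of 133 spots led by Fmod, a collagen-binding proteoglycan of fibrous tissue, at 129 CPM, or 39 UMIs and 35.9 CPM without its 2 high spots. In library 4 the region led by Fmod was also the highest, at 60.6 CPM in 88 spots, or 25.4 CPM without its 1 high spot.

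The high spots were rich in meningeal, vascular and ensheathing glia transcripts and mostly poor in bulb neuron transcripts. For each marker list, the share of a spot's UMIs was ranked among all spots of its library. The leptomeninges list stood at a median percentile of 95.7 over the 9 spots, and 9 of 9 lay above their library's median. The endothelium list stood at 95.5 (9 of 9 above), mural cells at 94.8 (8 of 9) and ensheathing glia at 93.5 (8 of 9). Sensory axons stood at 91.9 (8 of 9) and olfactory mucosa at 91.5 (9 of 9). Library medians of the mucosa list were low, at 0.00574% to 0.00996% of UMIs. A spot of library 4 stood at the 50.2 percentile on 1 UMI of that list. Summed, the high spots of library 4 held 0.344 times (0.178 to 0.601) the mucosa share of spots without Gnrh1. At the other end, the pan-neuronal list stood at 5.51, with 7 of 9 spots under the 10th percentile and 1 of 9 above the median. Granule cells stood at 3.70, periglomerular neurons at 20.4 and mitral and tufted cells at 25.2. The median of any list over all spots is by construction the middle of the ranking.

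**Figure D4:**
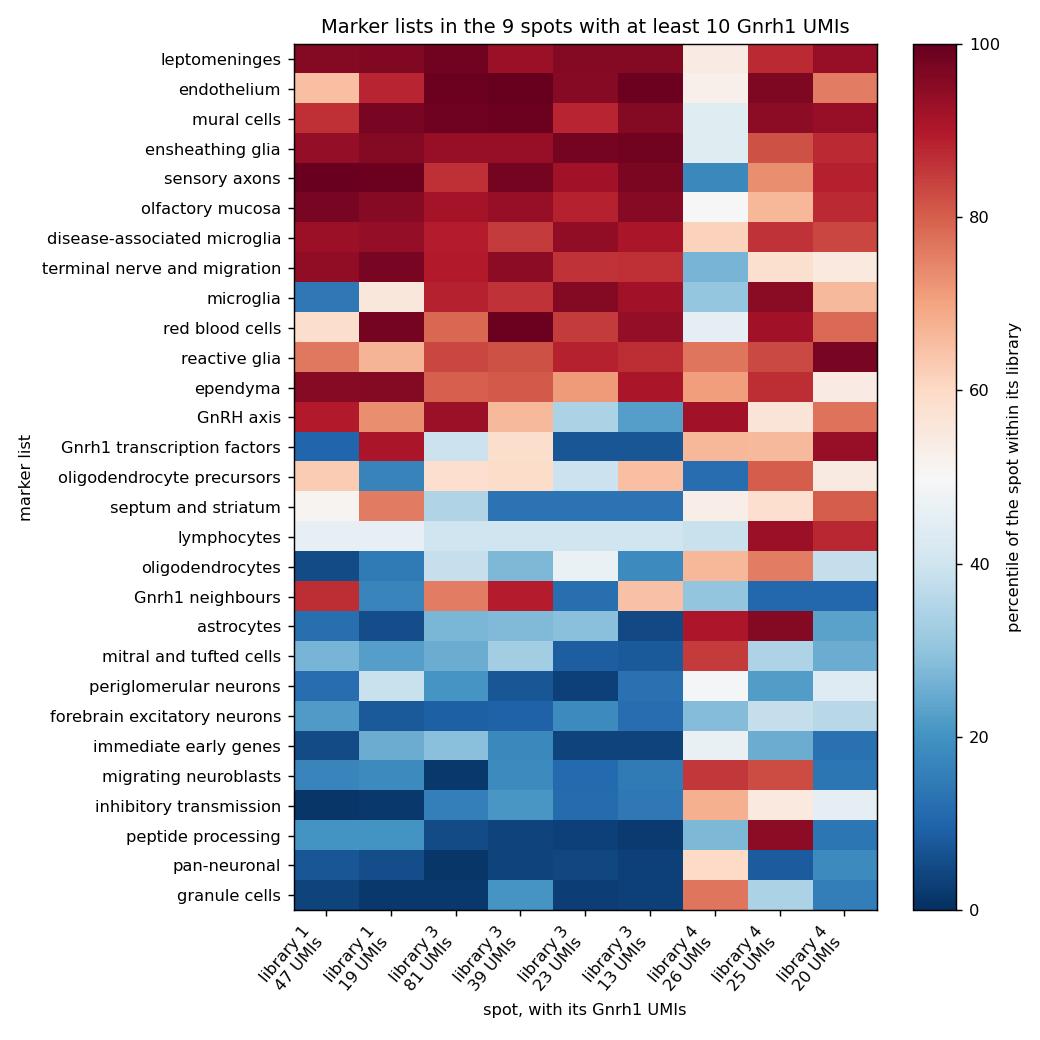
Percentile of each marker list (rows) in each of the 9 spots with at least 10 Gnrh1 UMIs (columns), ranked among the spots of the same library, from low (blue) to high (red). The leptomeninges list is above the middle in all 9 columns and the pan-neuronal list below it in all but the spot of library 4 with 26 UMIs, while other neuronal lists vary, such as migrating neuroblasts at the 82.4 percentile in the spot of library 4 with 25 UMIs.

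The 9 spots were not of one kind. The pair in library 1 were rich in sensory neuron RNA: sensory axon genes made up 2.88% and 2.63% of their UMIs, against a library median of 0.0548%, and Omp, the olfactory marker protein of mature sensory neurons, had 45 and 10 UMIs. The same pair held 37 and 9 UMIs of Cyp2a5, a cytochrome of the nasal mucosa. Meningeal RNA was high in this pair too, with 2.29% and 2.46% of UMIs from the leptomeninges list against a library median of 0.0787%. In the 4 spots of library 3 that list gave 3.5% to 8.42% of UMIs, against a library median of 0.204%. Their sensory axon share was lower than in the pair, at 0.108% to 0.268% against a library median of 0.0425%, with 0 to 6 UMIs of Omp. In library 4, spots with 25 and 20 Gnrh1 UMIs had 1.71% and 3.05% of their UMIs from the leptomeninges list. The third, with 26 Gnrh1 UMIs in the Tbx21 region, had 0.260% against a library median of 0.210%, and its pan-neuronal list stood at the 60 percentile. In it, migrating neuroblasts stood at 85.5, mitral and tufted cells at 84.8 and granule cells at 76.7. Periglomerular neurons stood at 48.9 and forebrain excitatory neurons at 28.3. Ensheathing glia stood at 44.1 and sensory axons at 17.9, so this spot was unlike most of the others.

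Named genes showed the same contrast when the 9 spots were summed and set against the level of spots without Gnrh1 in the same libraries. Of the 3462 genes with at least 5 UMIs expected, 7.74% had an interval of observed over expected above 1. Among them S100a5, a calcium-binding protein of sensory neurons, was most enriched, with 212 UMIs where 24.0 were expected (8.85-fold, 7.70 to 10.1). The pair in library 1 gave 112 and 64 of these UMIs. Cyp2a5 had 62 where 10.3 were expected, 37 of them in a single spot. Other genes of the mucosa list were mixed. Cyp2g1 had 24 where 4.55 were expected. Bpifb4 had 16 where 17.1 were expected, Bpifb6 9 where 10.3 were, Gpx6 8 where 10.5 were and Obp1a 2 where 4.81 were. Cldn5, the tight junction protein of brain endothelium, had 40 UMIs where 6.72 were expected (5.95-fold, 4.25 to 8.11) and was above its library's level in 9 of 9 spots, with 1 to 12 UMIs each. Ptgds, a prostaglandin synthase of the meninges, had 2470 UMIs where 453 were expected (5.45-fold, 5.24 to 5.67), from 22 UMIs in the spot of the Tbx21 region to 789 in the highest spot.

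Genes of fibroblasts and mural cells followed. The matrix genes Mgp and Dcn and the growth factor gene Igf2 were 5.70-fold, 5.22-fold and 5.80-fold above expectation, each in 7 of 9 spots, and Col1a2 4.89-fold, also in 7 of 9. Apod, an apolipoprotein of ensheathing glia and fibroblasts, had 455 UMIs where 101 were expected, above its level in 8 of 9 spots. Hbb-bs, a haemoglobin chain that marks blood in the section, had 218 UMIs where 51.4 were expected, of which 87 and 57 were in 2 spots. The part of blood, meningeal or mucosal tissue in the Gnrh1 signal was not tested.

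Several neuronal genes were low when the same spots were summed. Snap25, a synaptic vesicle fusion protein, had 42 UMIs where 159 were expected (0.265-fold, 0.191 to 0.358), with 1 to 9 UMIs per spot and no spot above its library's level. Rbfox3, which encodes the nuclear marker NeuN, had 0 UMIs where 9.23 were expected, and Napg, another vesicle fusion protein, 0 where 9.62 were expected. Nrgn, the cortical neuron gene, had 6 UMIs where 85.9 were expected. The forebrain excitatory list stood at a median percentile of 18.0 and the septum and striatum list, from the tissue in which most of these hormone neurons lie, at 51.2. Immediate early genes stood at 17.8.

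All spots with a Gnrh1 UMI were then set against the other spots of their library, for libraries 1, 3 and 4, since library 2 had too few. In library 1, 100 of 4683 genes with at least 20 expected UMIs were over 1.5-fold higher in the Gnrh1 spots (2.14%), and 205 were over 1.5-fold lower (4.38%). In library 3, 570 of 8154 genes were higher (6.99%) and 680 lower (8.34%). In library 4, 137 of 6957 genes were higher (1.97%) and 110 lower (1.58%). The median log2 ratio over all genes was -0.04, -0.10 and 0.03 in the 3 libraries, and the counts of the lists below are read beside these shares.

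In library 1 the spots with Gnrh1 held more blood, sensory axon and mucosal RNA. The median log2 ratio was 2.10 for the red blood cell list, with 4 of 4 measured genes over 1.5-fold higher, and 2.0 for sensory axons, with 6 of 6. It was 1.36 for the mucosa list, with 2 of 4, and 0.64 for ensheathing glia, with 3 of 5. Weighting the other spots to the same regions left 1.63, 1.57, 1.70 and 0.18, so the ensheathing glia difference was small within regions.

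In library 3 the lists of meninges, vessels and phagocytes were higher. The median log2 ratio was 1.48 for disease-associated microglia (6 of 6 genes, among them Apoe and Lyz2), 1.44 for leptomeninges (8 of 8) and 1.44 for mural cells (3 of 4). It was 1.12 for ensheathing glia (5 of 7), 1.01 for reactive glia (8 of 9), 0.85 for red blood cells (4 of 4), 0.63 for endothelium (3 of 5) and 0.62 for microglia (3 of 4). Forebrain excitatory neurons were lower at -0.68 (6 of 8), septum and striatum at -0.65 (2 of 3) and the pan-neuronal list at -0.55 (3 of 9). Within regions the leptomeninges list lay at 0.70, disease-associated microglia at 0.89, ensheathing glia at 0.60, mural cells at 0.30 and endothelium at 0.12. Red blood cells lay at 0.25, reactive glia at 0.43 and microglia at 0.33 within regions, all short of 1.5-fold. The lower lists named above shrank as well, to -0.20 for forebrain excitatory neurons, -0.27 for septum and striatum and -0.27 for the pan-neuronal list. Not every lower list did: olfactory mucosa went from -0.55 (3 of 6 genes lower) to -1.08, and periglomerular neurons from -0.30 to -0.43.

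In library 4 no list reached 1.5-fold. The nearest were reactive glia at 0.58 (2 of 5 genes), red blood cells at 0.55 (1 of 4) and leptomeninges at 0.41 (1 of 8). The pan-neuronal list lay at -0.09. Disease-associated microglia lay at -0.31 by the median of 6 genes, while their summed share of UMIs was 1.04 times that of the other spots (1.01 to 1.07). With spots of at least 2 Gnrh1 UMIs only, 3 of the 13 lists that could be measured were over 1.5-fold higher.

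Spots with 1 to 9 UMIs leaned the same way as the high spots in the leptomeninges and pan-neuronal lists, by less. Against spots with none, 1.96%, 6.52% and 1.66% of genes were over 1.5-fold higher in them in libraries 1, 3 and 4, and 4.37%, 7.41% and 1.73% lower. The leptomeninges list made up 7.46 times the share found in spots without Gnrh1 in the high spots of library 1 (interval 6.64 to 8.36), and 2.11 times (2.03 to 2.19) in its spots with 1 to 9 UMIs. In library 3 these ratios were 7.28 (6.95 to 7.62) and 2.52 (2.48 to 2.56), and in library 4 they were 2.75 (2.53 to 2.99) and 1.24 (1.2 to 1.27). For the pan-neuronal list they were 0.375 and 0.847 in library 1, 0.212 and 0.704 in library 3, and 0.594 and 0.946 in library 4. Other neuronal lists did not all follow: granule cells lay at 0.815 (0.604 to 1.07) and 1.04 (0.985 to 1.10) in library 4, and migrating neuroblasts at 1.18 (0.893 to 1.52) and 1.12 (1.05 to 1.19). Mucosa differed among libraries: for the high spots of library 1 the ratio was 8.91 (7.15 to 11.0), while for those of library 3 it was 1.60 (1.09 to 2.28) and for those of library 4 only 0.344 (0.178 to 0.601).

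**Figure D5:**
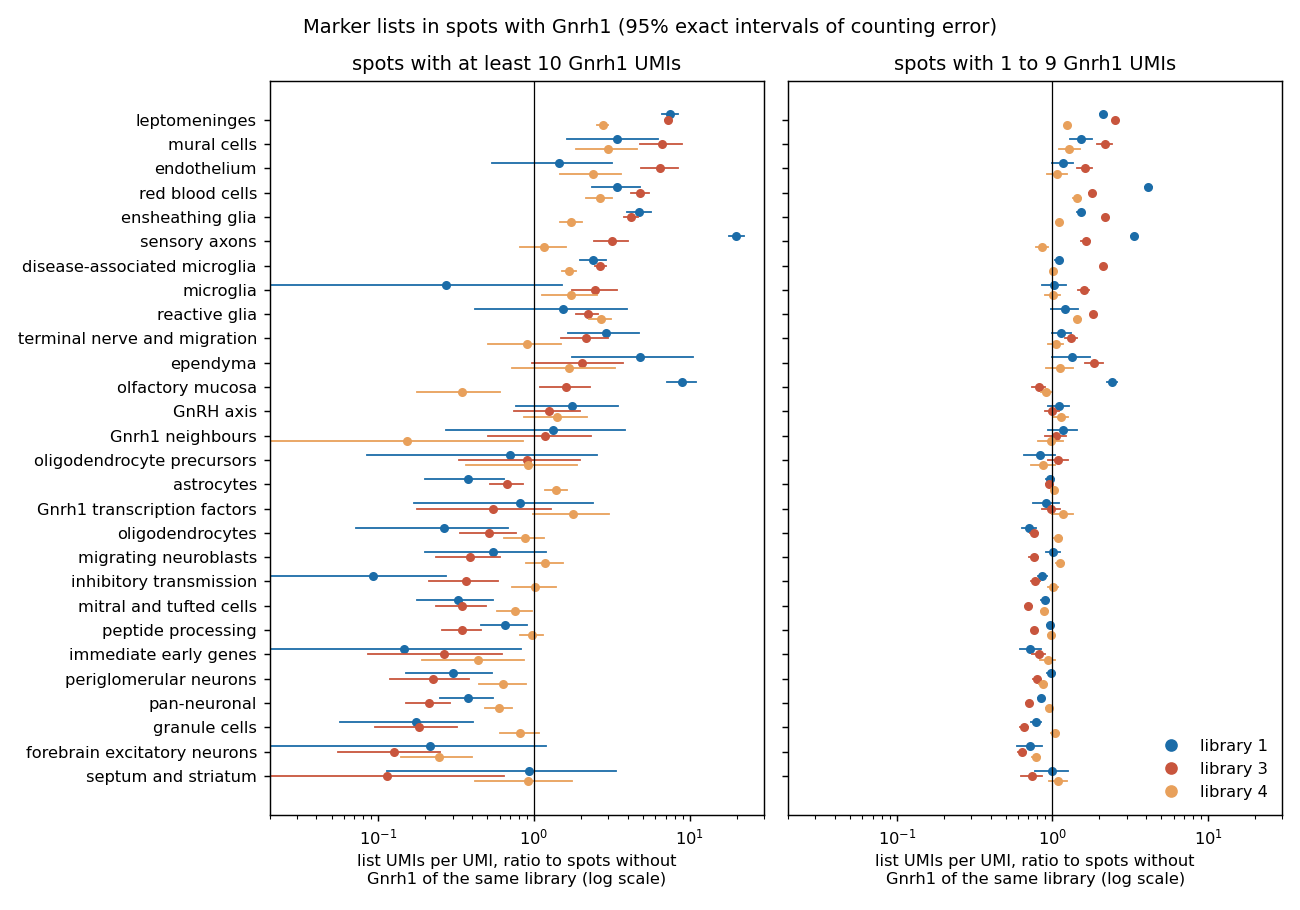
Share of UMIs taken by each marker list (rows) in spots with at least 10 Gnrh1 UMIs (left) and with 1 to 9 (right), as a ratio to spots without Gnrh1 of the same library (horizontal axis, log scale), with 95% exact intervals; lines that reach the edge of the panel go beyond it. The leptomeninges list lies to the right of 1 and the pan-neuronal list to the left in all 3 libraries, farther from 1 in the left panel, where the leptomeninges list reaches 7.46 and 7.28 in libraries 1 and 3, while migrating neuroblasts lie to the right of 1 in library 4.

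Few genes were past 1.5-fold in all 3 libraries. Of 4637 genes measured in each, 2 were over 1.5-fold higher in every library, Hbb-bs and Myl12a. Hbb-bs lay at 3.86, 2.03 and 1.61 times the level of the other spots in libraries 1, 3 and 4. Myl12a, a myosin light chain, lay at 1.57, 2.10 and 1.66 times. Vps39, a vesicle fusion gene, and Ntng1, netrin G1 of mitral and tufted cells, were over 1.5-fold lower in each, at 0.607, 0.605 and 0.622 and at 0.630, 0.566 and 0.640 times. The genes next highest by their lowest ratio were Hba-a1, Vtn, Hbb-bt, Fn1, B2m, Nbl1, Plat and Vim. Vtn, the vitronectin of pericytes, was 1.54, 1.90 and 1.45 times higher, and Fn1, fibronectin, 1.38, 2.22 and 1.43 times.

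Of the genes through which the hormone acts, the receptor was not detected. Gnrhr had 0 UMIs in all 4 libraries, where 3 UMIs would be 0.225, 0.574, 0.239 and 0.315 CPM in libraries 1 to 4. Kiss1, which encodes the kisspeptin that excites these neurons in the hypothalamus, had 1 UMI, while its receptor gene Kiss1r had 195 UMIs at 5.34, 5.55, 4.31 and 4.30 CPM. Kiss1r had 1 UMI in the 9 high spots, where 0.374 were expected. Tac2, the neurokinin B precursor, had 1307 UMIs, and its receptor gene Tacr3 had 40. None of the 1307 and 40 fell in a high spot.

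Several genes are known in people and mice for a loss that impairs both the migration of these neurons and bulb growth. Fgfr1, a fibroblast growth factor receptor, lay at 87.8, 83.8, 118 and 108 CPM, and its ligand Fgf8 had 2 UMIs. Fgfr1 had 24 UMIs in the high spots where 8.55 were expected (2.81-fold, 1.80 to 4.18), above its library's level in 8 of 9 spots. Over all Gnrh1 spots it was 1.25 (0.919 to 1.66), 1.45 (1.22 to 1.71) and 1.33 (1.08 to 1.64) times the level of the other spots in libraries 1, 3 and 4.

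Prokr2, the prokineticin receptor, had an order of libraries like that of Gnrh1, at 2.71, 2.11, 10.2 and 7.97 CPM, but 0 UMIs in the high spots, where 0.647 were expected. Prok2, its ligand, lay at 4.21, 5.17, 3.27 and 2.20 CPM. Nsmf, a synapse-to-nucleus messenger, had 18 UMIs in the high spots where 16.3 were expected, Chd7, a chromatin remodeller, 2 where 1.14 were expected, and Sema3a, a repulsive guidance cue, 1 where 1.94 were expected. The oestrogen receptor genes Esr1 and Esr2 had 42 and 2 UMIs and the opioid precursor gene Pdyn 330, with 0 UMIs of each in the high spots.

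Transcription factors known to act on the Gnrh1 promoter gave few UMIs in these spots. Dlx5 had 3 UMIs where 3.23 were expected, Cebpb 3 where 3.03 were expected, Meis1 3 where 1.78 were expected and Msx1 1 where 0.385 were expected. Pou2f1 and Otx2 had 0 where 1.35 and 0.198 were expected. Isl1, which many of these neurons express, had 8 UMIs in all spots, of which 2 lay in the 9 high spots, 1 in library 1 and 1 in library 3. Six6 had 2 UMIs in all, 1 of them in the spot of library 1 with 19 Gnrh1 UMIs. These are single molecules, and no level can be read from them. Gata4 had 0 UMIs.

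Genes that process and store peptide hormones were low in most of the high spots. The list stood at a median percentile of 13.7, with 1 of 9 spots above its library's median, the spot of library 4 with 25 Gnrh1 UMIs, at 94.8. Cpe, a carboxypeptidase of secretory granules, had 136 UMIs in the high spots where 187 were expected (0.728-fold, 0.610 to 0.861). Scg2 had 7 where 25.3 were expected, Chgb 6 where 25.5 were expected, Scg5 25 where 47.0 were expected and the convertase gene Pcsk2 4 where 12.9 were expected. Pcsk1 had 0 where 2.24 were expected. Chga, a granule protein, had 17 UMIs where 13.0 were expected, and 7 and 8 of them were in the pair of spots of library 1. Scg3 had 16 where 15.2 were expected and Pam, the amidating enzyme, 7 where 6.43 were expected, while the peptidase genes Thop1 and Prep had 1 and 2 UMIs.

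Of the 10 genes of the migratory route, 2 had an interval above expectation in the high spots. Only Ncam1 had at least 5 UMIs expected, the limit behind the 7.74% of genes given above. The count of 2 therefore has no comparable share over all genes. Ncam1, an adhesion molecule of the nerve pathway, had 34 UMIs where 19.6 were expected (1.74-fold, 1.2 to 2.43), and was above its library's level in 6 of 9 spots. Cxcl12, the chemokine that guides these neurons in the mouse nose and is also made by meninges, had 11 where 4.51 were expected (2.44-fold, 1.22 to 4.36), above its level in 5 of 9 spots, and in library 3 it was 1.91 times (1.53 to 2.37) higher over all Gnrh1 spots. Its receptor gene Cxcr4 had 2 UMIs where 0.792 were expected. Plxnb1 had 8 where 4.8 were expected, Sema4d 3 where 3.61 were expected, Cntn2 3 where 3.39 were expected, Ntn1 3 where 0.751 were expected, and Dcc and St8sia2 1 each. Prph, the peripherin that marks terminal nerve and other peripheral axons, had 27 UMIs in all and 0 in these spots.

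The gene next to Gnrh1 did not share its pattern. Gnrh1 lies on chromosome 14, with Kctd9 before it on the same strand and Dock5 after it on the opposite strand, in the GENCODE annotation. Kctd9, a gene of similar abundance with 622 UMIs, lay at 21.3, 17.0, 11.5 and 11.1 CPM in libraries 1 to 4, so its highest library was library 1 and its lowest library 4. It had 1 UMI in the 9 high spots. Dock5 had 174 UMIs, 2 of them in 1 high spot, and Cdca2, Ebf2 and Bnip3l had 0, 0 and 9 in the high spots of 28, 178 and 6633 in all.

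The genes whose levels over the 24 library-by-region sums were most like Gnrh1 were ranked by Pearson r of log2(CPM + 1) among 9859 genes. Pabpc1, a poly(A)-binding protein, came first at 0.79, then Tgfbi, a matrix protein induced by TGF-beta, at 0.78. H2-Aa and H2-Eb1, chains of the class II molecules of antigen-presenting cells, lay at 0.77 and 0.76, and Gpx8, a peroxidase of the endoplasmic reticulum, at 0.77. The rest were Col5a1, a fibrillar collagen, at 0.73, Atl3, Anxa3 and Rnh1 at 0.73 each, and Anxa2 at 0.72. Sums of 1 library share its chemistry and sections, so the points are not independent. Tgfbi ranked first by Spearman's rho (0.74) and also without the high spots (r = 0.78). It lay at 4.13, 5.17, 27.7 and 19.2 CPM in libraries 1 to 4 and so, unlike Gnrh1, at about the same level in libraries 1 and 2.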

How the data were processed

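The deposited file is one matrix of UMI counts from the authors' Space Ranger run (version 1.3.1, per the file headers); GRCm39 is the build in the submitters' processing notes. Gene names come from the file. The matrix pools 4 libraries, told apart by barcode suffix, with no map to the 4 labelled samples, so no test across conditions was made.

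Spots under 500 UMIs were set aside. CPM are summed UMIs per 1000000, with exact Poisson, conditional binomial or Clopper-Pearson intervals at 95%, which cover counting error only. Ratios in logs used a prior count of 0.5 and at least 20 expected UMIs per gene, and a list needed 3 such genes. Regions came from Leiden clustering (leidenalg 0.10.2; 2000 variable genes, 30 components, 15 neighbours, resolution 0.8) without Gnrh1, list, mitochondrial, ribosomal protein and haemoglobin genes, and those under 30 spots were left out. Doublets do not apply to spots.

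Gnrh1, the 29 marker lists (243 genes) and the questions were chosen with earlier results of these data known. Named genes were all members of the GnRH axis, transcription factor, peptide processing, migration and neighbour lists, leading members of the other lists, the 10 genes most like Gnrh1 and the 10 with the highest lowest ratio; genes named from the high spots were chosen after their values were seen. A few list members are not reported here. Alternatives covered the spot minimum, thinning, denominator, UMI threshold, region weighting, clustering and leaving out libraries or high spots. The summing and ratio steps were tested on simulated data.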

Additional observations from a re-analysis of the deposited data

How the results depend on the processing

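The level of Gnrh1 rested on few spots. As a mean over spots it was 14.6 CPM in library 1 and 20.5 in library 4. Without the highest spot, libraries 1, 3 and 4 lay at 7.45, 16.6 and 14.6 CPM, and without the 9 high spots, a setting chosen after seeing the data, at 6.02, 10.6 and 9.89. The share of spots in libraries 1, 3 and 4 was 1.33%, 2.39% and 2.49% after thinning, and with at least 2 UMIs it was 0.842%, 0%, 2.01% and 1.70% in libraries 1 to 4. Leaving out each library in turn put the highest-to-lowest ratio between 2.10 and 20.1. Genes over 1.5-fold higher in libraries 1, 3 and 4 numbered 55, 236 and 72 with at least 2 UMIs, and 9, 89 and 3 with 100 expected UMIs, where fewer genes enter. In library 3, weighting to regions left 306 genes. Lists over 1.5-fold higher numbered 1, 5 and 3 with at least 2 UMIs, where only 8, 16 and 13 lists could be measured against 17, 26 and 24, and 3 in library 3 within regions. Thinning left 0 in library 1 and 1 in library 3, where 2 and 3 lists could still be measured. The highest region lay at 19.2, 351 and 82.9 CPM in library 1 and at 44.1, 129 and 124 CPM in library 3 with resolution 0.4, resolution 1.2 and genes centred by library. Without high spots it was 14.9, 24.0 and 18.0 CPM in libraries 1, 3 and 4. The causes were not tested. The other 33 of the main values stayed within counting error or 1.5 times. Among them was the ratio of library 3 to library 2 without the high spots, 9.26 against 20.1, with overlapping intervals. The main values are levels, shares, ratios and counts, so they cannot change sign. Median log2 ratios of lists short of 1.5-fold could: within regions of library 3, astrocytes went from 0.05 to -0.20 and oligodendrocytes from -0.05 to 0.18. A threshold of 5 or 20 UMIs gave 16 or 7 high spots. No paired analysis was possible because the libraries could not be tied to the labelled samples. Depth limits single-molecule counts such as those of Isl1 and Six6.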
